A study of Mus musculus with 28 samples.

Results

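The genes described here were 10 components of the IL6-family cytokine and Jak-Stat pathway, namely the ligand genes Il11 and Lif, the receptor genes Lifr, Osmr, Il6st and Il6ra, the kinase genes Jak1 and Jak2, the transcription factor gene Stat3 and the inhibitor gene Socs3. NMuMG cells (subclone E9), an untransformed mouse mammary gland epithelial line, were left untreated (0h) or given TGF-β at 2 ng/ml for 4h or 24h, which induces an epithelial to mesenchymal transition (EMT). In the ERKi conditions the MEK inhibitor UO126 at 25 µM was present from 30 min before TGF-β, again for 4h or 24h, and the other conditions received its solvent DMSO. ChIP-seq for acetylated lysine 27 of histone H3 (H3K27ac), a mark of active promoters and enhancers, was done in triplicate, with 15 libraries over the 5 conditions. No ERKi condition without TGF-β was among the libraries, so ERKi was compared with DMSO under TGF-β.

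A peak belonged to a gene when its summit lay within 100 kb of a protein-coding transcription start site of that gene and no start site of another gene was nearer. Overlapping peaks of the 15 libraries were joined into regions, and each region was named by its gene and the distance of its highest summit from the nearest start site of that gene. The 10 genes held 106 of 89050 regions, 38 of the 26934 regions with a peak in all 15 libraries, and 1195 of 893719 peaks. Of the 106 regions, 62 were intergenic, 38 lay in introns, 4 in exons and 2 in UTRs, and 18 had a peak in 1 library only. Regions whose summit lay within 1 kb of a start site are called promoter regions and all others distal. A promoter region with a peak in every library was found at 6 of the genes, Jak1, Jak2, Stat3, Socs3, Lif and Il6ra.

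Cytokines of the IL6 family share the signalling receptor chain gp130, the product of Il6st, which pairs with a receptor specific to the ligand, such as those encoded by Lifr, Osmr and Il6ra. Ligand binding activates the receptor-bound kinases Jak1 and Jak2, which phosphorylate Stat3, and phosphorylated Stat3 enters the nucleus and activates its target genes, among them Socs3. The Socs3 protein in turn inhibits the receptor complex and its kinases. In mammary epithelium the pathway is known for its part in involution after lactation, where Lif and Stat3 act.

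The regions on which the comparisons turned are shown as 300 bases centred on the highest summit, from the plus strand of mm9. Matches to the STAT motif TTCNNNGAA and the AP-1 motif TGANTCA on either strand are in capitals. The first 3 windows come from intergenic regions upstream of Jak2 whose H3K27ac rose with TGF-β and was lower under ERKi at 24h, and lie at chr19:29260489-29260788, chr19:29296051-29296350 and chr19:29303616-29303915. The next one, at chr19:29290422-29290721, rose with TGF-β and had no detected difference under ERKi. The Jak1 window, at chr4:100889196-100889495 in an intron of Jak1, comes from a region that fell, and the Il11 window, at chr7:4731472-4731771 in an intron of Il11, from a region with a peak in the 24h libraries alone.
Jak2, 65.7 kb upstream: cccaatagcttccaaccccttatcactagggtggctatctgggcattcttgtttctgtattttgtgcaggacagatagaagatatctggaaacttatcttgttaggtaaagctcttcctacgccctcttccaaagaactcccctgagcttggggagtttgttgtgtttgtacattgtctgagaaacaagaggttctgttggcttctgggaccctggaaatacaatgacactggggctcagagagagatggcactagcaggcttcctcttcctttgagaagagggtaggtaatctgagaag
Jak2, 30.1 kb upstream: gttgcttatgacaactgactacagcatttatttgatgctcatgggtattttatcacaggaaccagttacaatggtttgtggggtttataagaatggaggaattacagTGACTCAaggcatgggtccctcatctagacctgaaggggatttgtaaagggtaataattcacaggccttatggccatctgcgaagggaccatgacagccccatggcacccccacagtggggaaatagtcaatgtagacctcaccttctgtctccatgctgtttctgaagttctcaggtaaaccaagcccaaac
Jak2, 22.6 kb upstream: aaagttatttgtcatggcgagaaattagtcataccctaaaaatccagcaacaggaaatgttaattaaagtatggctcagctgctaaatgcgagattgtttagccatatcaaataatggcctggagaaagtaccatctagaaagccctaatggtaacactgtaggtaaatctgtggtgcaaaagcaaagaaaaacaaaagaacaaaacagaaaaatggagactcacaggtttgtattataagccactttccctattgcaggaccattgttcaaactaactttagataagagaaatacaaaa
Jak2, 35.7 kb upstream: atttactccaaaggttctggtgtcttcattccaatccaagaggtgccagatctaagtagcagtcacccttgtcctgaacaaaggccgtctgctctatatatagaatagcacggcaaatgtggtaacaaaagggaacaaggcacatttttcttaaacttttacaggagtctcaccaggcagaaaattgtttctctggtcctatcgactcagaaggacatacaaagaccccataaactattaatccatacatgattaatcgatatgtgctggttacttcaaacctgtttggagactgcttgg
Jak1, 48.5 kb downstream: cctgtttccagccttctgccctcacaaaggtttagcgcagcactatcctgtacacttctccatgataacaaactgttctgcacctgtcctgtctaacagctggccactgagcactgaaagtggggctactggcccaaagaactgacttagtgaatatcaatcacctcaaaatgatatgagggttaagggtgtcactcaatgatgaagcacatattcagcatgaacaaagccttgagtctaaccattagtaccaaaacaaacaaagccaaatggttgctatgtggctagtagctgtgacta
Il11, 1.88 kb upstream: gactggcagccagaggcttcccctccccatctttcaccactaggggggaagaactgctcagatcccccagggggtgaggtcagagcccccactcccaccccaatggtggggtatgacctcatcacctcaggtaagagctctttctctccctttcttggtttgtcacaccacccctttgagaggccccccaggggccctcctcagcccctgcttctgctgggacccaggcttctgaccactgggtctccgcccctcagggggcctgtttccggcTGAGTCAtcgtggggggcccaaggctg

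Of these 6 windows, those 30.1 kb upstream of Jak2 and 1.88 kb upstream of Il11 held an AP-1 match, the Il11 window also held the ETS motif CCGGAA on the minus strand, and none held a STAT match. Over windows of that length at all members, 13.2% of 106 held a STAT match, against 9.32% of the 89049 windows of all regions. For AP-1 the shares were 12.3% and 10.1%, for CCGGAA 6.6% and 5.67%, for the RUNX motif TGTGGTT 2.83% and 6.17%, and for the E-box CAGGTG 28.3% and 21.2%. These shares are descriptions, since windows near one gene are not independent, and no motif was tested.

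Peaks were called by the authors in each library by itself, and a peak list gives a level only where a peak was called. The number of fragments over the summit, called the pileup here, was solved from the fold enrichment and p-value of each peak and divided by a size factor of the library. Libraries held 50445 to 69180 peaks, with size factors of 0.777 to 1.37 and a median pileup of 38 to 57 fragments; the total read depth is unknown from the peak lists. Replicates were numbered libraries, and no label says whether they were separate cultures, so p-values measure the spread between these libraries, which may be technical. The pileup comes from whole cultures, so that a lower mark in all cells and its loss in some of the cells cannot be told apart. The epithelial label was checked at the promoters of 10 epithelial marker genes. Peaks were called in all 15 libraries at 4 of them, Cldn4 had one in 11 libraries, and the promoters of Epcam, Cldn3, Cldn7, Esrp1 and Grhl2 had none. No promoter of 6 leukocyte, 4 endothelial, 4 fibroblast or 4 myoepithelial markers had a peak in every library, the most frequent being Pdgfra in 3 libraries. The percentiles of the epithelial promoters summed to 328 to 340.1 at 0h, 371.8 to 406.3 at 4h and 413 to 438.2 at 24h, and under ERKi to 342.8 to 398.2 at 4h and 411.4 to 427.4 at 24h. The endothelial sum was 0 throughout, and the sums of the other lists reached at most 33.37, in leukocyte markers under ERKi at 24h. The part of the epithelial markers' rise in the results was not tested.

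The largest fitted differences between 24h and 0h among the members were at Jak2. Of the 38 member regions with a level in every library, 9 rose and 4 fell between 0h and 24h, and 6 of those that rose lay upstream of the Jak2 start site, the farthest at 65.7 kb. The other 3 that rose were 2 regions of Il6ra and 1 of Il11. Those that fell were the region 19.6 kb downstream of the Jak2 start, 2 regions of Socs3 and 1 of Jak1. The share of members that rose was 23.7%, against 10.7% of all 26934 regions tested, and the share that fell was 10.5%, against 6.55% of all (limma, adjusted p under 0.05 over all regions). Jak2 held 9 of the 38 regions and 6 of the 9 rises, so the share that rose rests mainly on that locus. Neighbouring regions are not independent, and the shares of members here and below are descriptions. The median log2 difference was 0.10 over the members and -0.03 over all regions. Of these 13 calls, 1 stayed past the threshold in its direction when fold enrichment over the local background was compared in place of pileup, 8 kept their direction only and 4 turned, so rises and falls stated here refer to pileup.

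Il11 encodes a secreted cytokine that binds Il11ra and gp130, and Lif the leukaemia inhibitory factor. A single region of Il11 had a peak in every library, at chr7:4728046-4729153 in an intron 1.06 kb downstream of a start site. Its scaled pileup was 22.6, 27.2 and 21.9 fragments in the 0h libraries, 31.5, 34.6 and 24.8 in the 4h libraries and 49.5, 50.2 and 37 in the 24h libraries, in replicates 1 to 3. The ERKi 4h libraries held 34.95, 46.96 and 24.3 and the ERKi 24h libraries 38.2, 27.03 and 34.9. The 24h libraries were all above the 0h libraries, and the ERKi 24h values reached into the range of the 24h libraries. The log2 difference of 24h from 0h was 0.92 ± 0.26 (SE; limma adjusted p = 0.0172), a ratio of 1.90, and that of ERKi 24h from 24h was -0.45 (95% interval -0.99 to 0.09, limma adjusted p = 0.361). The call at 24h was lost without 0h replicate 1 or 3 or 24h replicate 1 or 2, with adjusted p up to 0.0663, under quantile normalization (0.052) and without scaling between libraries (0.105). The local background there rose from 3.70 to 15.99 fragments, and as fold enrichment over that background the region fell by 0.93 on the log2 scale at 24h (limma adjusted p = 0.00481).

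Il11 has start sites at 4729743 and 4734460 of chromosome 7, on the minus strand, and its other regions, all in introns, had peaks mainly at 24h. The number of peaks nearest to Il11 was 1 in each 0h library, 2, 1 and 3 at 4h and 7, 4 and 3 at 24h, against 1 in each ERKi 4h library and 2, 1 and 2 in those of ERKi 24h. The region 1.88 kb upstream, at chr7:4731368-4731733, had peaks in the 3 libraries of 24h alone, at percentiles 54.2, 42 and 47.7 by pileup among the peaks of each library, and in none of the 12 others. At the region 2.23 kb downstream of the other start site, chr7:4731962-4732890, the percentiles were 66.7, 48 and 63.5 at 24h and 0, 0 and 28.7 at 24h under ERKi, where 0 stands for no peak. No 0h library had a peak there, 2 of the 4h libraries did, and the ERKi 24h libraries were all below the 24h libraries (two-sided exact permutation test, p = 0.1, the smallest that 3 against 3 libraries allow). The share of all regions that separate in this way was not counted. The AP-1 match in capitals in the Il11 sequence above belongs to the window around the summit of the region 1.88 kb upstream. This match and the CCGGAA match of that window lie past the end of the region itself, at 4731733. As the summit of the region 1.06 kb downstream lay on either side of the 1-kb limit, the number of distal peaks of Il11 was 1, 0 and 0 at 0h, 3 at 24h in each library and 0, 1 and 1 at 24h under ERKi.

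Lif had the most regions of all members, 30, of which 26 were distal, and its 301 distal peaks over all libraries put it at percentile 99.1 of the 12198 genes with any distal peak. The 9 Lif regions with a peak in every library did not pass the test in any of the 4 comparisons. The promoter region at the downstream start site of Lif held 211 ± 5.92 fragments in the 0h libraries, 197 ± 13.3 in those of 24h and 179 ± 7.64 in those of ERKi 24h (SD, n = 3), a log2 difference of -0.11 ± 0.12 (SE) between 24h and 0h. Regions of Lif without a peak in every library differed by whole peaks. At the region 30.2 kb downstream, chr11:4197000-4197800, the percentiles were 82.3, 79.3 and 92.1 in the 4h libraries, 95.6, 86.2 and 98.4 in the 24h libraries, 79.8, 78.2 and 93.3 in the ERKi 4h libraries and 94.7, 90.3 and 97.8 in the ERKi 24h libraries. Every library with TGF-β had a peak there and no 0h library did, and ERKi and DMSO libraries overlapped at both times. The region 27.3 kb downstream showed peaks in the 3 libraries of 4h (73, 64.9 and 82.2) and of 24h (89.1, 77.8 and 90.7), in 2 libraries of each ERKi condition and in none at 0h. Both are intergenic and lie beside other peaks, with a median local background of 63.6 fragments at 30.2 kb and 50.8 at 27.3 kb where a peak was called. Whether the missing peaks at 0h meant less signal or more background was not tested. The intronic region 2.83 kb downstream, chr11:4160092-4160571, had a peak in every library of 0h, 4h, 24h and ERKi 4h and in 1 of ERKi 24h. Its percentiles were 86.7, 93.2 and 93.8 in the 24h libraries and 0, 74 and 0 in the ERKi 24h libraries, which were all lower (two-sided exact permutation test, p = 0.1, the smallest possible). At the regions 55.8 and 77.2 kb downstream the ERKi 24h libraries were all higher than the 24h libraries. The mean percentiles were 28.7 against 8.07 and 38 against 17.4 (two-sided exact permutation test, p = 0.1 each). The share of all regions that separate in this way was not counted. Whether the missing peaks under ERKi meant less signal or more background was not tested either. The first Lif promoter, at start site 4157560, had no peak at 0h, 4h or ERKi 4h. A peak 0.193 kb downstream was called in 2 libraries of 24h and 2 of ERKi 24h, and one 0.504 kb upstream in 2 and 3. The promoter peaks of Lif over both start sites numbered 2, 2 and 3 at 4h and 1 in each ERKi 4h library, without overlap (two-sided exact permutation test, p = 0.1, the smallest possible). Among 10992 genes with a promoter peak in either condition 0.209% had fewer under ERKi at 4h without overlap. A gene with 1 promoter peak per library separates only by losing it in every ERKi library, so this share is not a like background for Lif. At the Lif promoter region with a peak in every library, ERKi differed from DMSO at 4h by 0.02 on the log2 scale (95% interval -0.23 to 0.27).

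Lifr and Osmr, which encode the ligand-specific chains of the Lif and oncostatin M receptors, had little H3K27ac. No library had a peak within 1 kb of a start site of either gene. The single Lifr region, 98 kb upstream, had a peak in 13 libraries at percentiles of 0.873 to 40.7, and the 2 Osmr regions, 76.9 and 87.1 kb upstream, had a peak in 1 library each. As a promoter without a peak can carry H3K27ac below the limit of the peak caller, these genes are only said to have no called peak. Percentile 1 of the pileup among the peaks of a library was 11 to 14 fragments.

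Il6st, the gene of the shared chain gp130, had a region with a peak in every library 10.7 kb upstream of its GENCODE start site at 113265216 of chromosome 13. The RefSeq promoter of Il6st matched mm9 at one place, 10.9 kb upstream of that start and inside the region, chr13:113253536-113255480, so the region covers an annotated promoter that the gene set used for assignment does not hold. Its pileup was 147 ± 3.06 fragments in the 0h libraries, 139 ± 17.6 in those of 4h and 132 ± 5.99 in those of 24h, and with ERKi 147 ± 19.05 after 4h and 149 ± 2.17 after 24h (SD, n = 3). No difference was detected, and the 95% interval of the log2 difference of 24h from 0h was -0.44 to 0.13. The other Il6st region, 49.9 kb upstream, had a peak in 8 libraries.

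At the promoter of Il6ra, the gene of the IL6-specific receptor chain, scaled pileup was higher at 4h than at 0h, and no difference between ERKi and DMSO was detected there. The promoter region, at chr3:89716000-89717787, was at 95.4, 124 and 125 fragments in the 0h libraries, 191, 203 and 202 in the 4h libraries and 241, 222 and 275 in the 24h libraries. The ERKi 4h libraries held 213, 200.2 and 202 and the ERKi 24h libraries 244, 220.1 and 312. All libraries with TGF-β lay above all 0h libraries, and ERKi and DMSO libraries overlapped at both times. The log2 difference from 0h was 0.80 ± 0.15 at 4h (SE; limma adjusted p = 0.00403) and 1.11 ± 0.15 at 24h (limma adjusted p = 5.81e-05). ERKi differed from DMSO by 0.05 at 4h (95% interval -0.26 to 0.36) and 0.06 at 24h (-0.25 to 0.37; limma adjusted p = 0.891). The mean local background at this promoter rose from 10.8 scaled fragments in the 0h libraries to 17.6 in the 4h and 23.0 in the 24h libraries. By fold enrichment over it the log2 difference from 0h was 0.12 at 4h (limma adjusted p = 1) and 0.05 at 24h (limma adjusted p = 0.938), and without scaling between libraries the 4h call was lost (0.417).

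A region in an intron of Il6ra 16.2 kb downstream, chr3:89699726-89701738, had its condition means in the same order at a lower level. It was at 50.96, 33.1 and 43.8 fragments in the 0h libraries, 78.7, 58.4 and 74.4 in the 4h libraries and 136, 73.02 and 146 in the 24h libraries, and with ERKi for 24h it was at 142, 97.8 and 130.2. Replicate 2 was the lowest library at 0h, 4h and 24h, and the 24h libraries were all above the 0h libraries. Between 24h and 0h the log2 difference was 1.43 ± 0.26 (SE; limma adjusted p = 0.00095). That of 4h was 0.74, with a limma adjusted p of 0.172, or 0.000266 with the replicate number as a block. The mean local background rose from 6.46 scaled fragments in the 0h to 19.9 in the 24h libraries, and by fold enrichment the log2 difference of 24h from 0h was 0.00 (limma adjusted p = 0.996). Under ERKi at 24h the log2 difference from DMSO was 0.11 (95% interval -0.45 to 0.66). A further intronic region, 32.7 kb downstream, had no peak at 0h or 4h and a peak in all 3 libraries of 24h, at percentiles 25.6, 13.9 and 28.9.

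**Figure D1:**
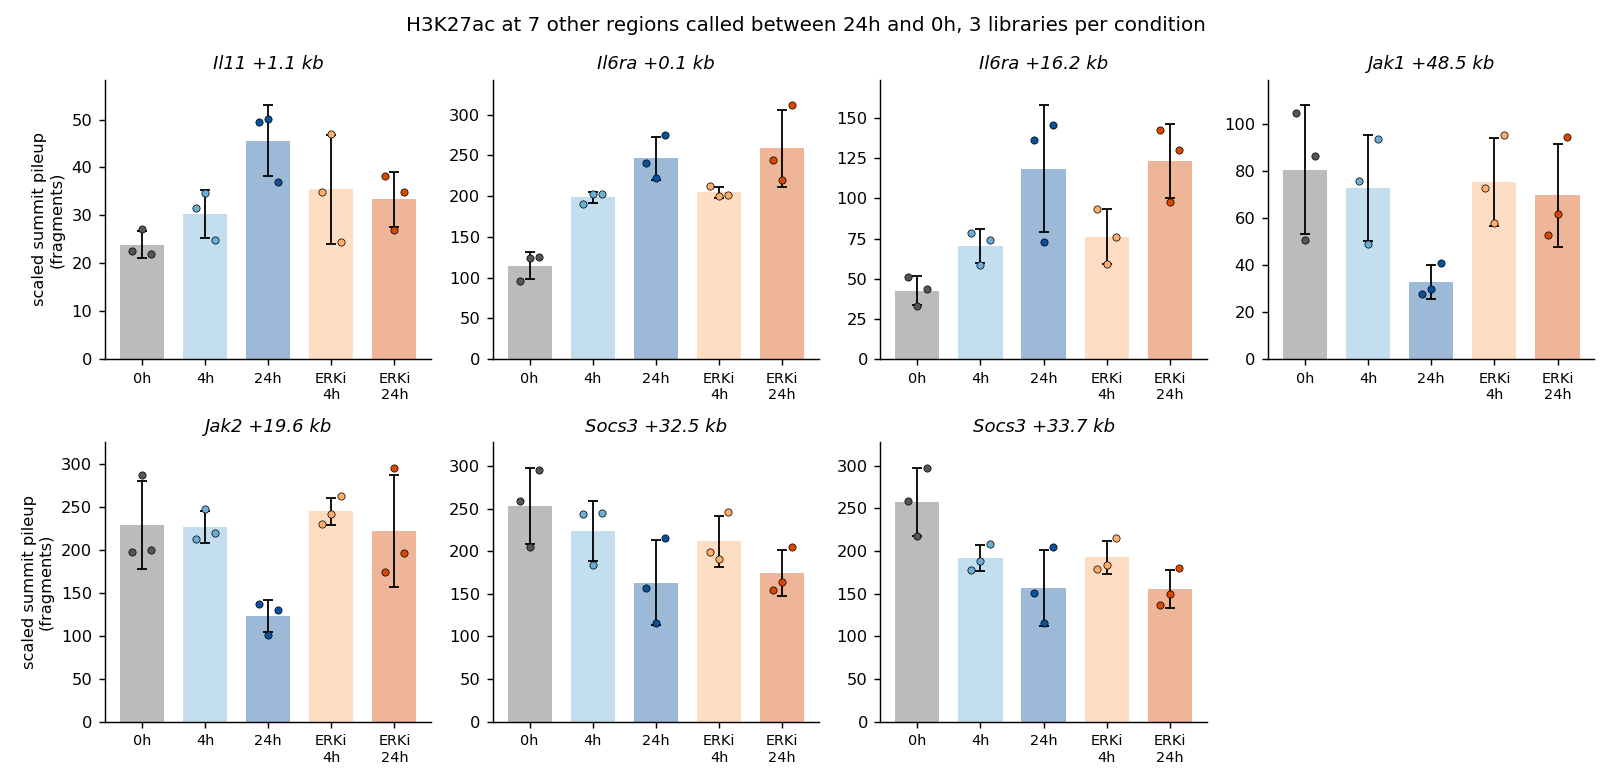
Scaled summit pileup in fragments (vertical axes, from 0) at 7 member regions called between 24h and 0h outside the sequence upstream of Jak2, for 0h, 4h, 24h, ERKi 4h and ERKi 24h. Points are the 3 libraries of a condition and bars the mean and SD; at both Il6ra regions and at Il11 the 24h libraries lie above the 0h libraries, and at Jak1, at Jak2 19.6 kb downstream and at Socs3 33.7 kb downstream they lie below, while at Socs3 32.5 kb downstream they overlap.

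Jak1, the kinase gene of the pathway used by all gp130 receptors, had 10 regions, of which 4 had a peak in every library. The promoter region was at 120.0 ± 14.9 fragments at 0h and 139 ± 16.8 at 24h (SD, n = 3), a log2 difference of 0.21 ± 0.16 (SE; limma adjusted p = 0.481). The intronic region 48.5 kb downstream, chr4:100888235-100890942, whose summit sequence is the Jak1 one above, was at 105, 50.8 and 86.6 fragments in the 0h libraries, 76.1, 48.9 and 93.7 in the 4h libraries and 27.8, 29.7 and 41.1 in the 24h libraries. Under ERKi the values were 72.8, 58.1 and 95.4 (4h) and 52.9, 61.8 and 94.6 (24h). The 24h libraries were below every library of the 4 other conditions. The log2 difference of 24h from 0h was -1.25 ± 0.31 (SE; limma adjusted p = 0.0086), which missed the threshold without 0h replicate 1 (adjusted p = 0.0595). ERKi 24h was higher than 24h by 1.06 ± 0.31 (limma adjusted p = 0.0473), and this call held in 7 of 15 fits that left out 1 library, with adjusted p of 0.0327 to 0.204. It was lost without 0h replicate 3, 4h replicate 1, 24h replicate 1 or 2, ERKi 4h replicate 1, or any ERKi 24h replicate, and also without scaling between libraries (0.0946) and over regions with a peak in 3 or more libraries (0.0561). By fold enrichment neither call was made, with log2 differences of -0.36 for 24h against 0h (limma adjusted p = 0.201) and 0.34 for ERKi against DMSO (limma adjusted p = 0.296).

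The region 11.6 kb upstream of Jak1 lacked a peak in 1 library, of 0h. Its percentiles were 16.4, 0 and 4.50 at 0h, 19.5, 18.4 and 30.5 at 4h and 32, 44.5 and 43.2 at 24h, and 58.5, 44.8 and 63.4 at 24h under ERKi. No library of 24h or of ERKi 24h overlapped those of 0h, and every ERKi 24h library was above the 24h libraries (two-sided exact permutation test, p = 0.1, the smallest possible, for each). The share of all regions that separate in this way was not counted. The intronic region 68.8 kb downstream had no peak at 0h and one in all libraries of 24h, at 34.2, 19.3 and 27.4.

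Jak2 encodes a kinase that also serves the receptors of growth hormone, prolactin and erythropoietin. Of its 28 regions 26 were distal, 9 had a peak in every library, and its 221 distal peaks put it at percentile 97.7 of the genes with distal peaks. In the intergenic sequence upstream of Jak2, 5 of 6 distal regions with a peak in every library rose between 0h and 24h, by 2.26- to 4.32-fold in scaled pileup.

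The regions 22.6 and 30.1 kb upstream had the highest fitted rises of all members, and there the ERKi 24h libraries overlapped the 0h libraries. The region 22.6 kb upstream, chr19:29302486-29304069, was at 83.7, 102 and 87.7 fragments in the 0h libraries, 152, 136 and 136 in the 4h libraries and 372, 348 and 425 in the 24h libraries. With ERKi, 71.8, 91.4 and 68.98 were found after 4h and 91.8, 126 and 79.1 after 24h. The groups 0h, 4h and 24h followed each other without overlap, and each ERKi group lay below the DMSO group of its time. Between 24h and 0h the log2 difference was 2.07 ± 0.18 (SE; limma adjusted p = 1.14e-06), a ratio of 4.20. At 24h ERKi differed from DMSO by -1.97 ± 0.18 (limma adjusted p = 1.4e-05), and ERKi 24h differed from 0h by 0.10 (95% interval -0.27 to 0.47). At 4h the difference from 0h was 0.64 (limma adjusted p = 0.0502, and 0.000887 with the replicate block), and that of ERKi from DMSO was -0.88 ± 0.18 (adjusted p = 0.0426, and 0.000155 with the block).

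This was the only member called between ERKi and DMSO at 4h, 1 of 38 or 2.63%, against 0.223% of all regions lower and 0.00743% higher. No member was called higher, and 0 had an unadjusted p under 0.05 in that direction (limma). The limma call was lost in 11 of 15 fits that left out 1 library, where the adjusted p reached 0.269. It was lost when any library of 0h or 4h was left out, and also without 24h replicate 1 or 2, ERKi 4h replicate 1 or 3 or ERKi 24h replicate 1. Of these, ERKi 4h replicate 1 carries in its peak names a library number out of the order of the others, and without it 0 of 38 members were called; whether the number is a slip was not tested.

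The region 30.1 kb upstream, chr19:29295950-29297345, was at 88.8, 81.5 and 113 fragments in the 0h libraries, 276, 139 and 309 in the 4h libraries and 436, 245 and 617 in the 24h libraries. The ERKi 4h libraries held 135, 97.6 and 154 and the ERKi 24h libraries 79.3, 99.1 and 111. The 24h libraries lay above those of 0h and ERKi 24h, and replicate 2 was the lowest of the 3 libraries at 0h, 4h and 24h and under ERKi at 4h. The log2 difference of 24h from 0h was 2.11 ± 0.30 (SE; limma adjusted p = 0.000118), that of 4h from 0h 1.29 ± 0.30 (limma adjusted p = 0.0215), and that of ERKi from DMSO at 24h -2.08 ± 0.30 (limma adjusted p = 0.00065). ERKi 24h differed from 0h by 0.03 (95% interval -0.61 to 0.67). At 4h ERKi differed from DMSO by -0.85 (limma adjusted p = 0.598, and 0.00171 with the replicate block). The 4h call was lost without 0h replicate 1 or 2 or 4h replicate 1 or 3, with adjusted p up to 0.14.

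At the region 65.7 kb upstream, chr19:29259415-29261132, the ERKi 24h libraries lay between those of 0h and 24h. It was at 340.0, 352 and 295 fragments in the 0h libraries, 422, 409 and 428 in the 4h libraries and 709, 667 and 855 in the 24h libraries. Under ERKi the values were 354, 382 and 350.0 (4h) and 409, 430.0 and 433 (24h). The ERKi 24h libraries overlapped the 4h libraries, and all lay below the 24h libraries and above the 0h libraries. Between 24h and 0h the log2 difference was 1.17 ± 0.12 (SE; limma adjusted p = 4.32e-06), that of ERKi from DMSO at 24h -0.80 ± 0.12 (limma adjusted p = 0.000646) and that of ERKi 24h from 0h 0.37 ± 0.12 (limma adjusted p = 0.0333). At 4h it was 0.36 from 0h, with a limma adjusted p of 0.124, or 0.0116 with the replicate block.

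The regions 35.7 and 9.73 kb upstream rose under ERKi as well. The former, chr19:29289745-29291696, was at 366, 316 and 264 fragments in the 0h libraries, 639, 613 and 670.4 in the 4h libraries and 842, 701 and 976 in the 24h libraries. With ERKi, 533, 546 and 548 were found after 4h and 806, 618 and 867 after 24h. All libraries with TGF-β, with ERKi or DMSO, lay above the 0h libraries, and ERKi and DMSO overlapped at 24h but not at 4h. The log2 difference from 0h was 1.03 ± 0.15 at 4h (SE; limma adjusted p = 0.000759), 1.41 ± 0.15 at 24h (limma adjusted p = 9.53e-06) and 1.27 ± 0.15 at 24h under ERKi (limma adjusted p = 2.49e-05). ERKi differed from DMSO by -0.24 at 4h (95% interval -0.56 to 0.08) and -0.14 at 24h (-0.46 to 0.18; limma adjusted p = 0.706). That the effect of ERKi differed between this region and its neighbours was not tested.

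The region 9.73 kb upstream, chr19:29314170-29317057, was at 312, 335 and 438 fragments in the 0h libraries, 744, 577 and 936 in the 4h, 1153, 719 and 1487 in the 24h and 779.8, 597 and 1076 in the ERKi 24h libraries. In these 3 conditions with TGF-β replicate 3 was highest and replicate 2 lowest, and the 24h libraries were all above the 0h libraries. The log2 difference from 0h was 1.04 ± 0.27 at 4h (SE; limma adjusted p = 0.0346) and 1.58 ± 0.27 at 24h (limma adjusted p = 0.000448). At 24h ERKi differed from DMSO by -0.43 (limma adjusted p = 0.414, and 0.00381 with the replicate block). The 4h call was lost without 0h replicate 1 or 2 or 4h replicate 1 or 3, with adjusted p up to 0.188. The sixth region, 48.4 kb upstream, differed by 0.54 ± 0.33 between 24h and 0h (limma adjusted p = 0.327, and 0.00727 with the replicate block).

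**Figure D2:**
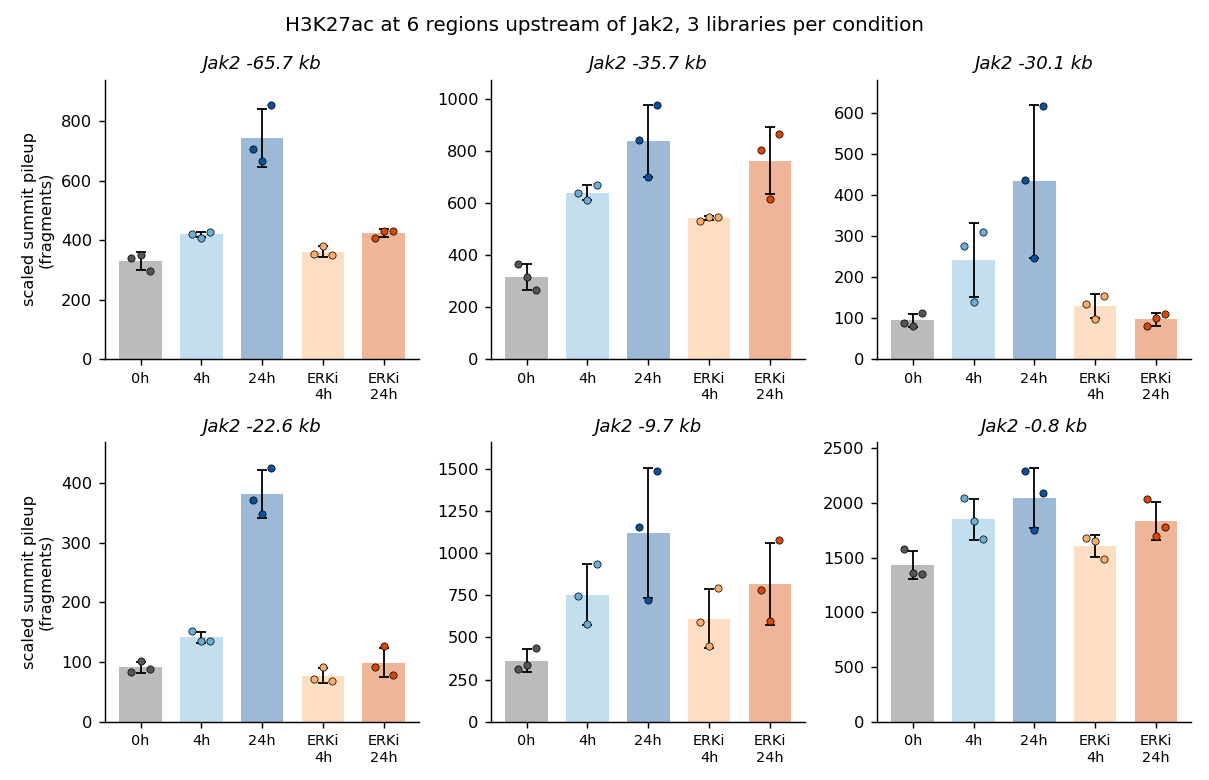
Scaled summit pileup in fragments (vertical axes, from 0) at 6 regions upstream of the Jak2 start site, for 0h, 4h, 24h, ERKi 4h and ERKi 24h. Points are the 3 libraries of a condition and bars the mean and SD; at 65.7, 30.1 and 22.6 kb upstream the ERKi 24h libraries lie below the 24h libraries, and at 35.7 kb upstream they overlap them.

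At the Jak2 promoter the log2 difference between 24h and 0h was 0.51 at most. The promoter region 0.764 kb upstream was at 1581, 1360.4 and 1352 fragments in the 0h libraries, 2293, 1754 and 2094 in the 24h libraries and 2034, 1698 and 1779.7 in the ERKi 24h libraries. The lowest 24h library lay above the highest 0h library. Its log2 difference of 24h from 0h was 0.51 ± 0.15 (SE; limma adjusted p = 0.0249), a call that was lost without 0h replicate 2 or 3 or 24h replicate 1 or 3, with adjusted p up to 0.106, under quantile normalization (0.0873) and without scaling between libraries (0.72). The region over the start site was at 1336 ± 169 fragments at 0h and 1614 ± 191 at 24h (SD, n = 3), a log2 difference of 0.27 ± 0.15 (SE; limma adjusted p = 0.242).

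Downstream of the start site, H3K27ac over a Jak2 exon moved the other way. The region 19.6 kb downstream, chr19:29344675-29347009, was at 198, 288 and 201 fragments in the 0h libraries, 213, 248 and 220.4 in the 4h libraries and 137, 102 and 131 in the 24h libraries. The ERKi 4h libraries held 231, 242 and 263 and the ERKi 24h libraries 174, 296 and 197. The 24h libraries were below all the others. The log2 difference of 24h from 0h was -0.88 ± 0.19 (SE; limma adjusted p = 0.00291), and at 24h ERKi differed from DMSO by 0.83 ± 0.19 (limma adjusted p = 0.0126), which was lost without 24h replicate 2 or ERKi 24h replicate 2, with adjusted p up to 0.0628.

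Signal around the Jak2 summits rose together with the summits. The local background that the peak caller compared each summit with rose from 15.4 to 51.1 scaled fragments between 0h and 24h at the region 22.6 kb upstream, from 18.0 to 101 at 30.1 kb, from 30.9 to 128 at 35.7 kb and from 42.7 to 88.1 at 65.7 kb upstream. As fold enrichment over that background the direction turned between 0h and 24h at 3 regions that rose by pileup, with log2 differences of -0.58 at 35.7 kb (limma adjusted p = 0.0143), -0.25 at 30.1 kb and -0.22 at 0.764 kb upstream. At the others the log2 differences were 0.36 at 22.6 kb (limma adjusted p = 0.198), 0.21 at 9.73 kb (0.532) and 0.15 at 65.7 kb upstream (0.65), so that no region upstream of Jak2 was called higher at 24h by fold enrichment. At 4h the differences were -0.17 at 35.7 kb and -0.07 at 30.1 kb upstream. The ERKi difference from DMSO after 24h was -0.85 at 30.1 kb upstream (limma adjusted p = 0.0219) and -0.01 at 22.6 kb (limma adjusted p = 0.989), and it turned at 65.7 kb upstream, to 0.18. After 4h it was -0.27 at 22.6 kb (limma adjusted p = 1). Fold enrichment therefore orders these conditions differently from pileup.

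Jak2 lies in a stretch of chromosome 19 with high pileups in all conditions. The median scaled pileup of its promoter over the 15 libraries was 1698 fragments, rank 10 of 9499 promoters with a peak in every library, whose median was 113.4. The promoters of Il6ra, Socs3, Lif, Stat3 and Jak1 were at 202.6, 202.5, 197.7, 189.9 and 135.8. Of the 15 such promoters within 1 Mb of the Jak2 start site, 12 were in the highest hundredth of all promoters, which held 95 and began at 319.7 fragments. Glis3 was at 1678 and Il33 at 916.7, while Uhrf2 at 779 kb from the Jak2 start was at 85.02. By fold enrichment over the local background the order of the members differed. At 0h the highest Jak2 promoter peak stood at mean percentile 83.9 among the peaks of its library. Stat3 was at 97.9, Jak1 at 96.7 and Il6ra at 92.1, while Lif was at 26 and Socs3 at 18.4. The mean local background at 0h was 184 scaled fragments at the Jak2 promoter, and 9.08 at Jak1 to 61.2 at Lif. The comparisons between conditions are made within each region.

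**Figure D3:**
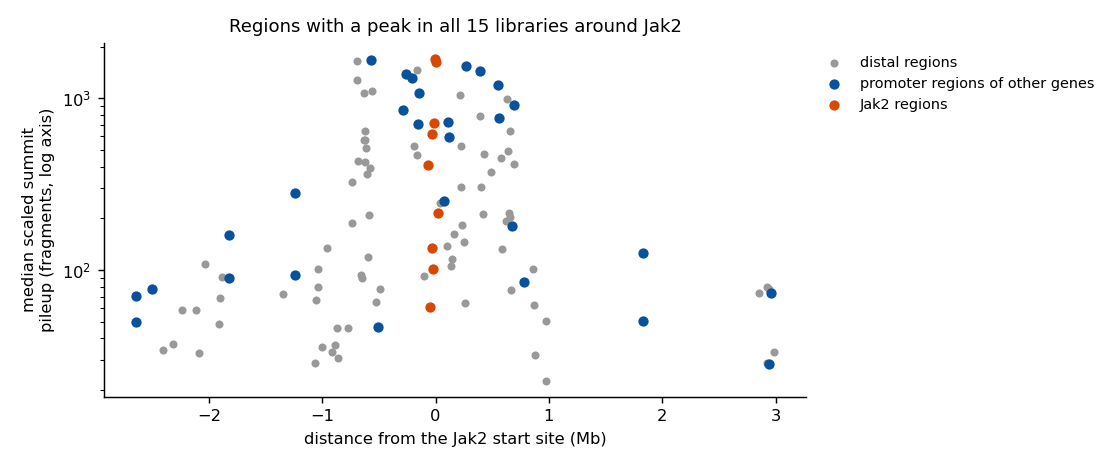
Median scaled summit pileup over the 15 libraries (vertical log axis, fragments) of regions with a peak in every library, against the distance from the Jak2 start site in Mb. Each point is a region, coloured as distal, as promoter of another gene or as Jak2 region; from Glis3 at 1678 to Il33 at 916.7 most promoters are high, apart from Gm5623 at 46.6 and Insl6 at 252.8, and Uhrf2 beyond them is at 85.02.

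Regions of Jak2 without a peak in every library added a gain and a loss. The region 33.4 kb upstream had no peak at 0h and peaks in all 24h libraries at percentiles 99.8, 99.7 and 99.8, and under ERKi at 24h at 99.3, 96.5 and 99.5. The region 13.1 kb upstream had peaks in all 0h libraries (75.3, 92 and 86.6) and in none of 24h or ERKi 24h. Its neighbour 12.5 kb upstream stood at percentiles 83.7, 88.4 and 95 at 0h and 99.4, 99.7 and 99.7 at 24h, and only 1 library of ERKi 4h had a peak there. The median local background was 115 fragments at 33.4 kb, 76.3 at 13.1 kb and 106 at 12.5 kb upstream, and whether a missing peak there meant less signal or more background was not tested.

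The 5 genes whose mean log2 scaled pileup over their regions was most like that of Jak2 across the 15 libraries, among 11836 genes, were Gm9843 (Pearson r = 0.969), Ltbp3 (0.962), Fam102b (0.949), Gm10355 (0.941) and Lmnb1 (0.94). The libraries share their size factors, and these values describe the likeness only.

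At Stat3, the transcription factor gene, no difference between conditions was detected. The promoter region of Stat3 held 176 ± 15.8 fragments in the 0h libraries, 198 ± 27.6 in those of 4h and 198 ± 18.99 in those of 24h, and with ERKi 202 ± 14.5 after 4h and 201 ± 9.29 after 24h (SD, n = 3). The 95% interval of the log2 difference of 24h from 0h was -0.11 to 0.45. The distal region 7.73 kb downstream differed by -0.35 ± 0.22 (SE; limma adjusted p = 0.335), and neither was called in any comparison.

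Socs3, the gene of the feedback inhibitor, had 17 regions, 15 of them distal and 9 with a peak in every library. A pair of neighbouring intergenic regions 32.5 and 33.7 kb downstream fell in scaled pileup between 0h and 24h of TGF-β. The latter, chr11:117795867-117797728, was at 259, 217 and 297 fragments in the 0h libraries, 178, 188 and 208 in the 4h libraries and 151, 115 and 205 in the 24h libraries. Under ERKi the values were 179.6, 184 and 215 (4h) and 137, 149 and 181 (24h). The 24h and ERKi 24h libraries were all below the 0h libraries and overlapped each other. Between 24h and 0h the log2 difference was -0.74 ± 0.18 (SE; limma adjusted p = 0.00799), that of ERKi 24h from 0h -0.72 ± 0.18 (limma adjusted p = 0.00881), and that of ERKi from DMSO at 24h 0.02 (95% interval -0.37 to 0.40). The region 32.5 kb downstream fell by 0.66 on the log2 scale at 24h (limma adjusted p = 0.0307), a call that was lost without 0h replicate 1 or 3 or 24h replicate 1 or 2, with adjusted p up to 0.148. By fold enrichment neither region was called, with log2 differences of -0.36 at 33.7 kb (limma adjusted p = 0.127) and -0.28 at 32.5 kb (0.107). Both calls were also lost without scaling between libraries (limma adjusted p = 0.153 and 0.254).

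The Socs3 promoter was higher in ERKi 24h libraries than at 0h. Its region 0.274 kb downstream of the start held 192 ± 24.2 fragments in the 0h libraries, 209 ± 26.6 in those of 24h and 262 ± 13.9 in those of ERKi 24h (SD, n = 3). The log2 difference of ERKi 24h from 0h was 0.46 ± 0.13 (SE; limma adjusted p = 0.0166), while that from 24h was 0.33 ± 0.13 (limma adjusted p = 0.137, and 0.00949 with the replicate block). The comparison of ERKi 24h with 0h was added after the data had been seen.

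Over all members, the 4h libraries showed 4 of 38 regions higher than at 0h and none lower. These were 3 upstream of Jak2 and the Il6ra promoter, 10.5% of the members against 3.47% of all regions, and the background share for lower regions was 0.167%. By limma 1 of the 38 was lower at 4h at an unadjusted p under 0.05, and with the replicate block 1 was called lower. The median log2 difference at 4h was 0.16 over the members and -0.04 over all regions. Between ERKi and DMSO at 24h, 3 of 38 were lower, all upstream of Jak2, and 2 higher, at Jak2 19.6 kb and Jak1 48.5 kb downstream, 7.89% and 5.26% against 4.14% and 2.99% of all regions. Their median log2 difference was -0.01, and 0.00 over all regions. Without scaling between libraries, 0 members were higher and 2 lower, and over all regions 387 were higher and 239 lower, in place of 805 and 1114. The calls lost in this way were those 65.7 kb upstream and 19.6 kb downstream of Jak2 and 48.5 kb downstream of Jak1. At 24h against 0h, 7 members were higher and 2 lower without scaling, with calls lost at both Socs3 regions, at the Jak2 promoter and at Il11, and the 4 calls at 4h and the 1 call for ERKi after 4h were lost as well.

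With the replicate number as a block, which the check of the numbers allowed, more regions were called. At 24h against 0h, 14 members were higher and 5 lower, where the block called 18.7% and 17.2% of all regions. At 4h against 0h it called 10 members higher and 1 lower, against 12% and 5.12% of all. For ERKi against DMSO, it called no member higher and 3 lower at 4h, against 0.839% and 3.24% of all, and 3 higher and 6 lower at 24h, against 13.3% and 14% of all. The regions called at 24h by the block alone were those 48.4 kb upstream of Jak2, 62 kb downstream of Jak1, 22.2 and 27.3 kb downstream of Socs3 and 35.6 kb downstream of Lif, which were higher, and that 30.9 kb downstream of Jak1, which was lower. At 4h they were the regions of Jak2 65.7, 22.6 and 0.764 kb upstream and 0.25 kb downstream, of Il6ra 16.2 kb and of Jak1 62 kb downstream, all higher, and the region of Socs3 33.7 kb downstream, which was lower. Under ERKi it added at 4h the regions 30.1 kb upstream of Jak2 and 4.12 kb downstream of Lif and at 24h those 48.4 and 9.73 kb upstream of Jak2 and 27.3 kb downstream of Socs3, all lower, and the Socs3 promoter, which was higher.

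**Figure D4:**
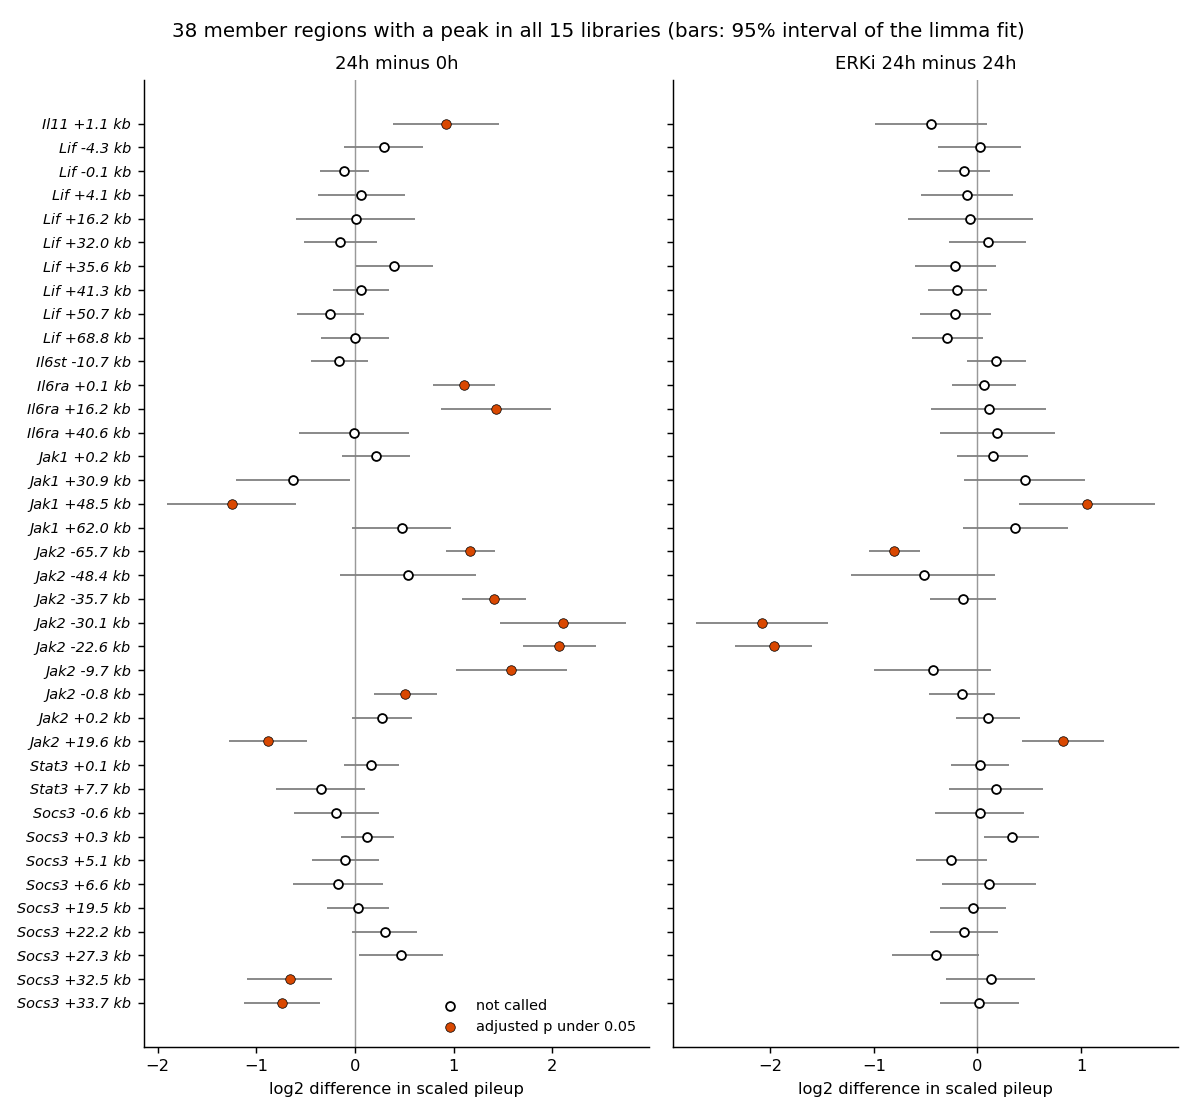
Log2 difference in scaled pileup (horizontal axes) of the 38 member regions with a peak in all 15 libraries, for 24h against 0h (left) and ERKi 24h against 24h (right). Points are limma estimates, filled where called, and bars their 95% intervals. The Jak2 regions 30.1, 22.6 and 9.7 kb upstream of the start lie farthest to the right at 24h against 0h, with up to 2.11 at 30.1 kb.

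Peaks that appeared or vanished as a whole were counted where all 3 libraries of one condition had a peak and none of the other. Of the 93 member regions with a peak at 0h or 24h, 8 gained one by 24h, which is 8.6% against 5.98% of all regions. They were 3 of Lif, 2 of Il11 and 1 each of Jak1, Jak2 and Il6ra, and 1 of Jak2 lost its peak, 1.08% against 2.52% of all. By 4h, 3 regions of Lif (9.7, 27.3 and 30.2 kb downstream) of 77 gained a peak, 3.9% against 1.65%, and 0 lost one, where 0.565% of all did. ERKi and DMSO at 4h showed 0 gained and 0 lost of 78, against 0.316% and 0.449%. At 24h the region of Il11 1.88 kb upstream was lost under ERKi and 1 region of Socs3, 45.1 kb downstream, was gained, 1.04% of 96 each, against 1.41% and 1.73%. The Socs3 region had percentiles of at most 7.07 under ERKi at 24h. No test was run on these shares.

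**Figure D5:**
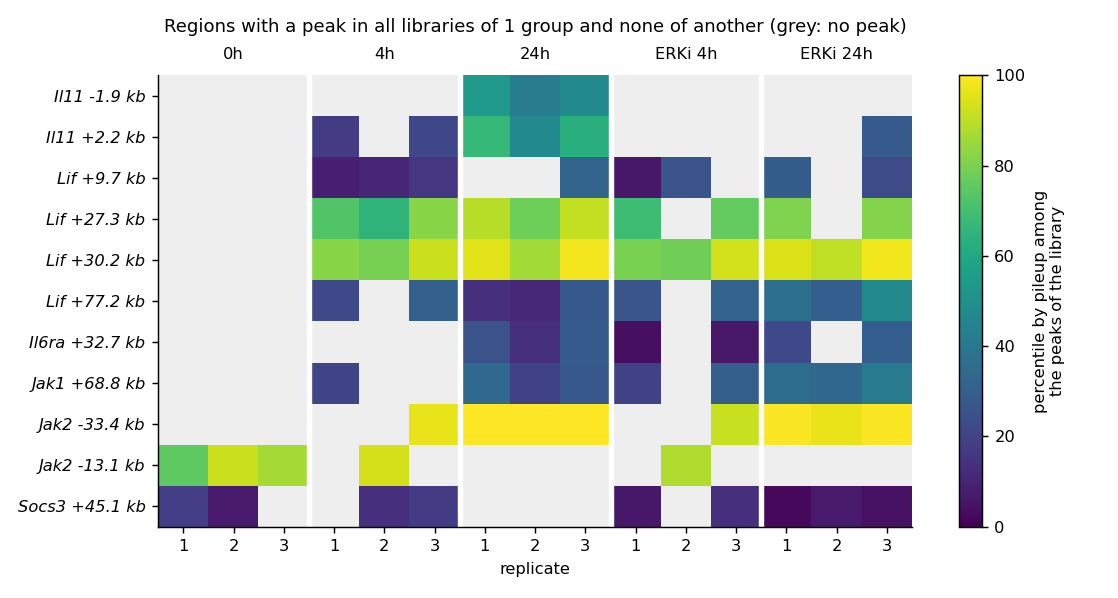
Percentile by pileup among the peaks of the library (colour) of the member regions that had a peak in all libraries of one condition and none of another, for each of the 15 libraries. Grey marks libraries with no peak; the Il11 region 1.88 kb upstream has peaks in the 24h libraries alone, and the Lif region 30.2 kb downstream in every library with TGF-β.

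The number of distal peaks nearest to the 10 genes together was 52, 59 and 64 in the 0h libraries, 61, 68 and 77 in those of 4h and 66, 77 and 80 in those of 24h. The ERKi 4h libraries had 62, 71 and 73 and the ERKi 24h libraries 70, 64 and 74. All 24h libraries had more than all 0h libraries, a difference of 16 peaks (two-sided exact permutation test, p = 0.1, the smallest possible), and the ERKi and DMSO libraries overlapped at both times. As a share of all distal peaks of the library it was 0.177% ± 0.0114 in the 0h libraries, 0.192% ± 0.00921 in those of 24h and 0.173% ± 0.0137 in those of ERKi 24h (SD, n = 3). It was 0.195% ± 0.00962 in the 4h and 0.187% ± 0.0138 in the ERKi 4h libraries, and the shares of 24h, from 0.184%, overlapped those of 0h, up to 0.188%. The counts of 24h and 0h also overlapped over peaks with a −log10 q of at least 10, with 36, 36 and 46 at 0h and 39, 44 and 50 at 24h, and where promoters reached 2500 bp, with 51, 59 and 63 against 62, 72 and 77. Peaks within 1 kb of a start site of the 10 genes numbered 10, 12 and 12 at 0h and 15, 13 and 13 at 24h, and 11, 11 and 12 in the 4h against 8, 10 and 9 in the ERKi 4h libraries. Neither pair overlapped (two-sided exact permutation test, p = 0.1 each, the smallest possible). Among single genes only Lif separated between ERKi and DMSO at 4h by promoter peaks, and none did between 24h and 0h. No share of all promoter peaks was computed for these counts. The libraries held 52221, 53603 and 59658 peaks in all at 0h and 56759, 61890 and 68050 at 24h. In the 4h libraries there were 50445, 56140 and 66385, and in the ERKi 4h libraries 56211, 57660 and 64815. The 24h and 0h libraries did not overlap in the number of distal peaks for 3 of the genes. Socs3 had 10 in each 0h library and 12, 13 and 16 at 24h, Lif 14, 18 and 17 at 0h and 20, 20 and 21 at 24h, and Il11 the numbers given above. Of 11239 genes with a distal peak at either time 15.6% had more at 24h without overlap. At 4h Socs3 alone had more than at 0h without overlap, with 11, 11 and 15, where 5.66% of all genes did, and at 24h Il11 alone had fewer under ERKi, where 3.58% did.

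Other genes of the pathway were taken as lists. Of 7 regions at 5 of 12 further cytokine and receptor genes and of 9 regions at 7 of 8 further kinase and STAT genes, 0 were called in any of the 4 comparisons, with median log2 differences at 24h against 0h of -0.01 and -0.02 (limma). At an unadjusted p under 0.05 the first list had 2 regions lower at 4h and 2 higher under ERKi at 4h and the second 0, and with the replicate block 1 region of the second was called at 24h and 1 under ERKi at 24h. Of 26 regions at 13 of 14 inhibitor genes, 3 were higher (11.5%) and 1 lower (3.85%) at 24h than at 0h, against 10.7% and 6.55% of all regions, and 1 was higher under ERKi at 24h (3.85%, against 2.99%). None was called at 4h or under ERKi at 4h, where 2 and 0 were higher and 0 and 3 lower at an unadjusted p under 0.05. With the replicate block the inhibitor regions called were 6 at 24h, 3 at 4h, and 3 and 8 for ERKi after 4h and 24h. Of 68 regions at 13 of 15 genes known as Stat3 targets, 5 were higher (7.35%) and 6 lower (8.82%) at 24h, 1 was higher at 4h and 1 lower under ERKi at 4h (1.47% each), and 3 were higher (4.41%) and 6 lower (8.82%) under ERKi at 24h. Of all regions 10.7% were higher and 6.55% lower at 24h, and 3.47% higher at 4h. Under ERKi 0.223% were lower at 4h, and 2.99% were higher and 4.14% lower at 24h. With the block 27 of the 68 regions were called at 24h, 13 at 4h, and 10 and 26 for ERKi after 4h and 24h. Of all regions the block called 18.7% higher and 17.2% lower at 24h and 12% and 5.12% at 4h. For ERKi it called 0.839% higher and 3.24% lower after 4h, and 13.3% and 14% after 24h. Pim1, a survival kinase, rose at a region 30.8 kb upstream by 1.38 at 4h and 1.73 at 24h on the log2 scale (limma adjusted p = 0.00871 and 0.000348). Vegfa, the endothelial growth factor, fell by 1.80 at 58.4 kb downstream at 24h (limma adjusted p = 0.000308). Bcl2l1, an inhibitor of apoptosis, was higher by 0.75 at 9.36 kb downstream at 24h, and its region 24.7 kb downstream was lower under ERKi, by -1.33 at 4h (limma adjusted p = 0.0247) and -1.71 at 24h (limma adjusted p = 0.000502). Under ERKi at 24h regions of Cebpb, 65.5 kb downstream, and of Hif1a, 12.5 kb upstream, which both encode transcription factors, fell by 1.14 and 1.03.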

How the data were processed

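H3K27ac ChIP-seq was carried out on NMuMG cells with an antibody from abcam (ab4729), in 15 libraries. According to the methods of the study and the submitters' processing notes, reads were mapped to mm9 with Bowtie and peaks were called with MACS2 at default parameters. Each library was called by itself, and the control used in calling is not given in the sources used here. The 10 RNA-seq and 3 input samples were not analysed here. In each deposited peak list the authors give the fold enrichment at the summit over the local background, which is a ratio, and its p-value and q-value as −log10.

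From fold and p-value the summit pileup and local background were solved as a whole number and a Poisson mean, within 0.005 in −log10 p for all but 25 of 893719 peaks. Peaks overlapping between libraries were joined into regions. A region took the highest pileup of its peaks in a library, divided by a size factor, the median ratio over regions with a peak in all 15 libraries. Start sites were the 46006 protein-coding ones of GENCODE vM1 (mm9). Promoter sequences were those of RefSeq (GRCm38.p6), matched to mm9 by sequence, and all 10 members matched. Log2 scaled pileups of 26934 regions were compared with limma 3.58.1 in R 4.3.3 (eBayes with trend, all 15 libraries in one fit), with Benjamini-Hochberg adjustment over all regions and a call at adjusted p under 0.05. Peak counts, and percentiles of regions without a peak in every library, were compared by two-sided exact permutation tests. The fit without a block was run on simulated counts, drawn independently for each library with no effect of the replicate number. Such counts cannot show how the fit behaves where libraries of the same number correlate.

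Replicate numbers were checked as pairs. Deviations from the group means correlated between libraries of the same number in 30 of 30 pairs above 0.1 (mean 0.581, range 0.335 to 0.79), so a fit with the number as a block is printed where it changes a call. The numbers come from the labels, and nothing states what they share. The alternatives were fold enrichment, other scalings, thresholds, filters, start sites and region definitions, and each library left out. The genes, regions and pathway lists were chosen with earlier results of these data known. Regions named are, for each comparison, the up to 5 with the smallest adjusted p among those called and every one with a peak in all libraries of one condition and none of the other. Other regions are named after their values were seen. Depth is unknown from peak lists, and the precision of a pileup is limited by its count.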

Additional observations from a re-analysis of the deposited data

Results flagged for a closer look

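The effect of ERKi was set against itself at 4h and 24h, as a difference of log2 differences, in a comparison added after the data had been seen. With the replicate number as a block, 5 of 38 member regions passed the test of this difference (limma), as did 1059 or 3.93% of all 26934 regions. Without the block 0 of 38 and 0 of all regions passed, and 5 members had an unadjusted p under 0.05.

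At the Jak2 region 22.6 kb upstream the ERKi difference was -0.88 at 4h and -1.97 at 24h, a change of -1.09 (limma adjusted p = 0.00131 with the replicate block and 0.355 without). At 30.1 kb upstream it was -0.85 and -2.08, a change of -1.23 (limma adjusted p = 0.00261 and 0.714). At 65.7 kb upstream it was -0.21 and -0.80, a change of -0.59 (limma adjusted p = 0.0145 and 0.528). The Jak2 region 19.6 kb downstream went from 0.11 to 0.83, a change of 0.715 (limma adjusted p = 0.0423 and 0.751), and the Jak1 region 48.5 kb downstream from 0.07 to 1.06, a change of 0.992 (limma adjusted p = 0.0287 and 0.905). These 5 regions are those called between ERKi and DMSO at 24h. The DMSO libraries of 24h, on which these differences rest, also differ from 0h at all of them.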

How the results depend on the processing

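Counts of member regions called by limma moved with the measure and the filter. At 24h against 0h the number of calls, 13, was 4 by log2 fold enrichment (0 higher and 4 lower), 26 over regions with a peak in 3 or more libraries and 8 with peaks of −log10 q of at least 10. At 4h the number, 4, was 0 by fold enrichment, 0 without scaling and 2 with the stricter peaks. For ERKi at 4h the 1 call became 0 under each of these and with regions in 3 or more libraries, and at 24h the number, 5, was 3 by fold enrichment, 2 without scaling and 3 with the stricter peaks. Of the 23 single calls, 2 stayed past the threshold by fold enrichment, Jak2 19.6 kb downstream at 24h (-0.743) and Jak2 30.1 kb upstream for ERKi at 24h (-0.85), and 14 kept their direction only. It turned 7, at 24h against 0h to -0.576 at Jak2 35.7 kb, -0.249 at 30.1 kb and -0.219 at 0.764 kb upstream and -0.927 at Il11 1.06 kb downstream, at 4h to -0.171 at Jak2 35.7 kb and -0.0738 at 30.1 kb upstream, and for ERKi at 24h to 0.18 at Jak2 65.7 kb upstream; local background entered the value there. At 24h against 0h, 7 members were higher and 4 lower under quantile normalization, and 7 and 2 without scaling (1457 and 853 of all regions in place of 2888 and 1764). Without scaling the median of all regions moved by -0.115 for ERKi at 4h and 0.158 at 24h.

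With the replicate block the calls were 19 at 24h, 11 at 4h, 3 for ERKi at 4h and 9 at 24h. All 23 single calls passed with the block, and the calls it added in these 4 comparisons are given with the results. The block left the differences in distal peaks at 16, 10.3, 0 and -5, where the smallest p it allows is 0.25. For ERKi 24h against 0h, added later, it gave 16 calls in place of 8, and these counts were not set beside the share of all regions called. With 1 library left out, calls ranged from 10 to 13 at 24h, 2 to 5 at 4h, 0 to 1 for ERKi at 4h and 3 to 5 at 24h. Over all such fits of single calls 303 stayed past the threshold and 42 did not. The differences in distal peaks ranged from 12.8 to 20.2, 6.17 to 14.2, -3.83 to 4.17 and -9.17 to -2.17.

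The 9 regions with a peak gained or lost at 24h became 4 with the stricter peaks, 4 with regions merged within 1000 bp and 5 with start sites of every biotype. The 3 at 4h became 0, 1 and 0, and the 2 for ERKi at 24h became 0, 0 and 1. The 0 for ERKi at 4h became 1 where a peak had to cover 0.5 of the region and 1 with the stricter peaks. With 1 library left out the rule asks for fewer libraries, so these counts could only stay or rise. They then ranged from 10 to 15, 3 to 7, 2 to 6 and 0 to 4 in this order. The causes were not tested. The limit of the peak caller bounds what a missing peak can show, and percentile 1 of the pileup among called peaks was 11 to 14 fragments per library. An exact p from 3 libraries against 3 cannot fall below 0.1.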
